A study of Mus musculus with 9 samples.

Results

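Hepacam2, Aspa and Atp8a2 are 3 genes of the 49672 in the expression table. They were picked by symbol as little-studied genes that were high in Merkel cells and close to 0 in basal keratinocytes, so the contrast between those cell types chose them and is given for them as a description, with no test. RNA was sequenced from cells sorted out of the epidermis of Sox2-GFP reporter mice at postnatal day 0, and the reporter was carried by all groups. The 3 Merkel libraries came from GFP-positive cells. The 6 basal keratinocyte libraries came from GFP-negative cells positive for SCA1 and CD49F. Each of sample numbers 1 to 3 had 2 of them, named here first and second as numbered in the titles. Nothing in the labels tells what separates first from second, or if a number stands for 1 animal or for pooled animals, so p-values measure only the spread between these samples, which may be technical. No further treatment, allele or sex is given in the labels.

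Merkel cells are touch-sensing cells at the base of the epidermis that arise from keratinocyte progenitors and carry neuroendocrine and synaptic genes. Hepacam2 encodes a membrane protein with immunoglobulin-like domains, related to the glial adhesion protein Hepacam. It is known from secretory and tuft lineages of the gut, and the human protein was described at the Golgi and at mitotic centrosomes as a target of tankyrase. Aspa encodes aspartoacylase, which cleaves N-acetylaspartate into acetate and aspartate. It is best known from oligodendrocytes, and its loss causes Canavan disease. Atp8a2 encodes a P4-ATPase, a flippase that moves phosphatidylserine to the cytoplasmic leaflet of a membrane together with the CDC50A subunit encoded by Tmem30a. It is known from neurons and photoreceptors.

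The 3 genes lie on different chromosomes of build mm10, all on the minus strand. Hepacam2 (ENSMUSG00000044156.14) spans chr6:3457096-3498298, 41203 bases. Its longest annotated coding transcript has 10 exons and 1389 coding bases. Aspa (ENSMUSG00000020774.9) spans chr11:73304992-73329596, 24605 bases, and its main coding transcript has 6 exons and 936 coding bases. Atp8a2 (ENSMUSG00000021983.15) spans chr14:59638540-60197179, 558640 bases, with 36 exons and 3444 coding bases in its main transcript. None of the 50-base windows of the Hepacam2 and Aspa transcripts occurred in a transcript of another gene. In the Atp8a2 transcript 2024 of 12837 windows did on either strand (15.8%), all of them in Gm19716, which is not analysed here. Reads from that stretch could be divided between Atp8a2 and Gm19716, depending on the strand setting of quantification, which was not given. No window of a member occurred in its named paralog (Hepacam, Acy3 and Atp8a1, respectively).

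The RefSeq promoter table of build GRCm38.p6 held 2 of the 3 genes, Hepacam2 and Aspa. Their bases upstream of the RefSeq start are shown because both genes were high in the same libraries. Capitals mark every E-box (CANNTG), the core bound by basic helix-loop-helix factors such as Atoh1. The Hepacam2 stretch covers chr6:3494598-3494748, positions -250 to -100 from its start, and the rest of its upstream window is annotated as exon. The Aspa stretch covers chr11:73324638-73324887, positions -250 to -1. Both are written 5′ to 3′ on the minus strand.
Hepacam2: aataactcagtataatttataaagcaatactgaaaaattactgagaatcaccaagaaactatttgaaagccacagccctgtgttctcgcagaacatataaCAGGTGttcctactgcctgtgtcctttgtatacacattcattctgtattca
Aspa: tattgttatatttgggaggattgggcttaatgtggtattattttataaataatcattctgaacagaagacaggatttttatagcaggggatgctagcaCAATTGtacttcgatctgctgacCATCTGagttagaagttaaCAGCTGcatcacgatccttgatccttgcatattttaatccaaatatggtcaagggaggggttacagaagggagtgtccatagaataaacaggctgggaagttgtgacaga

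The full 250 bases upstream of the start were low in GC in both genes. They held 40.4% GC and 1 CpG for Hepacam2, its 99 exonic bases included, and 38.8% GC and 2 CpG for Aspa. Over the same 250 upstream bases of 32851 promoters, the median was 52.4% GC with 6 CpG. Motifs were searched in whole promoter windows, from 250 bases before to 50 after a start. The whole Hepacam2 window held E-boxes at -150 and -31, the latter in annotated exon. The Aspa window held 4, at -152, -129, -110 and 2. At least 1 E-box was present in 72.3% of all promoter windows, so holding one is common. The narrower CAGNTG form (CANCTG on the other strand), a subset of the E-boxes, occurred in both genes and in 51.4% of windows. TATAAA was found on at least 1 strand in both genes, against 13.6% of windows, with the nearest copy at -233 in Hepacam2 and -174 in Aspa. ATTGTT, the core of SOX factor sites, occurred in Aspa at -249 and in 10.7% of windows. The homeodomain core TAATTA (5.29% of windows) and the GC box GGGCGG (35.7%) occurred in neither. All motifs were searched on both strands, and a match is a match of letters only.

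Values are TPM, transcript abundances scaled for transcript length and library total, and can be compared between genes. Hepacam2 stood at 108, 89.1 and 127 TPM in Merkel libraries 1, 2 and 3. In the first basal libraries it stood at 0.27, 0.47 and 0.53 TPM, and in the second at 0.02, 0.20 and 0.10 TPM. The Merkel mean was 108 ± 19.2 TPM (SD, n = 3) and the basal mean 0.265 ± 0.104 TPM (SD, n = 3 sample numbers, each the mean of its libraries). All 3 Merkel libraries were far above all 6 basal libraries, and the lowest Merkel value was 168-fold the highest basal value. The ratio of means was 408, and the difference was 6.43 on the log2(TPM + 1) scale, which understates changes of genes near 0.

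Aspa was at 54.2, 53.9 and 68.4 TPM in Merkel libraries 1, 2 and 3. It was at 0.14, 0.21 and 0.29 TPM in the first basal libraries and at 0.06, 0.23 and 0.21 TPM in the second. The means were 58.8 ± 8.26 TPM in Merkel and 0.190 ± 0.0794 TPM in basal cells (SD, n = 3 each), a ratio of 310 and a log2(TPM + 1) difference of 5.65. Merkel library 3 was highest and the other two were close together. The lowest Merkel value was 186-fold the highest basal value, and the groups did not overlap.

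Atp8a2 had the most even Merkel values, at 37.6, 36.6 and 39.7 TPM in libraries 1, 2 and 3. The first basal libraries held 0.20, 0.20 and 0.28 TPM, and the second held 0.01, 0.02 and 0.01 TPM, at the 2 decimals to which the table is written. The means were 38.0 ± 1.58 TPM in Merkel and 0.120 ± 0.0218 TPM in basal cells (SD, n = 3 each). That is a ratio of 316 and a log2(TPM + 1) difference of 5.13, with the lowest Merkel value 131-fold the highest basal value. In sorted bulk samples, fewer cells of a type and less RNA per cell cannot be told apart, so these levels are means over whatever each sort held.

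**Figure D1:**
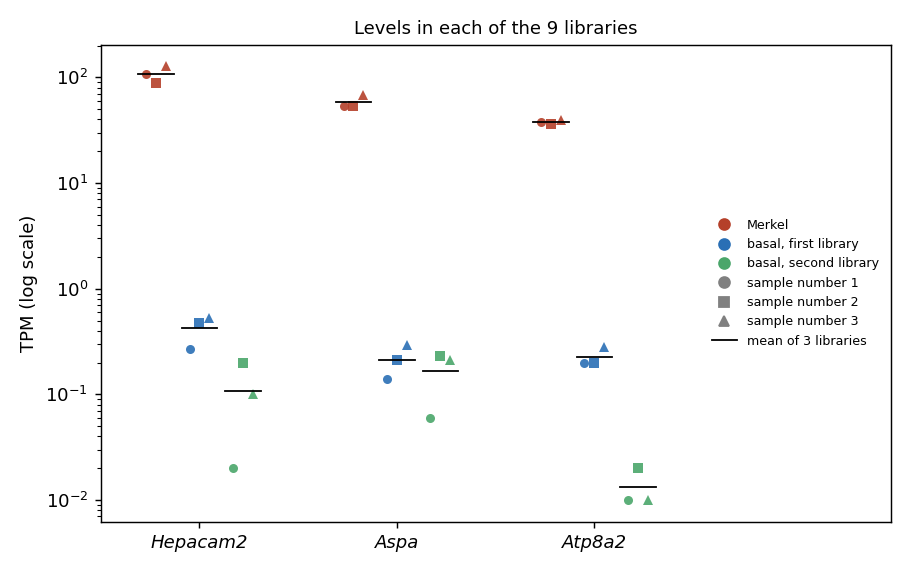
Level of Hepacam2, Aspa and Atp8a2 in each of the 9 libraries, in TPM on a log axis. Colour gives the group, marker shape the sample number and the bar the mean of 3 libraries. All Merkel points lie between 36.6 and 127 TPM and no basal point exceeds 0.53 TPM.

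All 3 members had every Merkel library above every basal library, as the choice of members fixes. The same held for 1621 of 13822 genes tested (11.7%). Each member was tested only because its 3 Merkel values passed the filter of 1 TPM in at least 3 of 6 values. By log2(TPM + 1) difference Hepacam2, Aspa and Atp8a2 ranked 7, 13 and 22 among the genes tested. By mean Merkel level they ranked 566, 1099 and 1861 of 21811 protein-coding genes. The choice of members on this contrast sets the first of these ranks, and the ranks are a description.

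The order of Merkel levels was Hepacam2, then Aspa, then Atp8a2 in all 3 libraries, and the ranges of neighbours in that order did not overlap. Hepacam2 was 1.99, 1.65 and 1.86 times Aspa in Merkel libraries 1, 2 and 3. Aspa was 1.44, 1.47 and 1.72 times Atp8a2. The coefficient of variation over Merkel libraries was 17.7% for Hepacam2, 14.0% for Aspa and 4.17% for Atp8a2. Called higher in Merkel cells were 938 genes (6.79% of those tested). Among them, whose median coefficient was 19.3%, 394 varied less than Hepacam2, 241 less than Aspa and 17 less than Atp8a2.

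For Hepacam2 and Aspa, but not Atp8a2, part of this spread moved with the share of TPM taken by small, structural and mitochondrial RNA. That share was 45.7%, 53.4% and 43.1% in Merkel libraries 1, 2 and 3. With those genes removed and TPM rescaled, Hepacam2 stood at 198, 191 and 224 TPM and its coefficient of variation was 8.37%. Aspa stood at 99.9, 116 and 120 TPM (9.49%), and Atp8a2 at 69.3, 78.6 and 69.7 TPM (7.24%). The order of the 3 genes and the absence of overlap between them held under this scaling. The coefficient of Atp8a2 rose from 4.17% to 7.24%, so its evenness depended on the scaling. It was still the lowest of the 3 genes, by a smaller margin. The highest Atp8a2 value was then in Merkel library 2.

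Hepacam2 kept a steady proportion to the reporter transcript. EGFP, read from a sequence added to the table, was at 222, 178 and 247 TPM in Merkel libraries 1, 2 and 3. Hepacam2 was 0.485, 0.4998 and 0.516 times EGFP there, a coefficient of variation of 3.13%. For Aspa and Atp8a2 the same coefficients were 10.6% and 13.2%. Against Sox2, the transcription factor whose reporter defined the sort, they were 10.3% for Hepacam2, 10.9% for Aspa and 6.56% for Atp8a2. With 3 libraries these are descriptions.

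The traces in basal libraries were the only values where a contrast not used in choosing the members could be tested. Hepacam2 had a lower value in the second basal library than in the first for all 3 sample numbers, by a mean of -0.36 ± 0.10 (SD, n = 3) on the log2(TPM + 1) scale. Atp8a2 was also lower in 3 of 3, by -0.27 ± 0.058 (SD, n = 3). For both genes all first libraries lay above all second libraries. Aspa was lower in 2 of 3 numbers, by -0.06 ± 0.071 (SD, n = 3), and its first and second libraries overlapped. The exact sign-flip permutation test over 3 sample numbers (two-sided) gave p = 0.25 for Hepacam2, 0.5 for Aspa and 0.25 for Atp8a2, and 0.25 is the smallest p this design allows. All basal values of the members were below 1 TPM and too low for the test over all genes, in which 91 of 13477 genes were called higher (0.675%) and 495 lower (3.67%) in second libraries. All first libraries lay above all second libraries for 10.1% of those genes.

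EGFP went the other way. It was at 3.72, 1.73 and 2.96 TPM in the first and 17.1, 13.4 and 18.3 TPM in the second basal libraries of numbers 1, 2 and 3. It was higher in the second library of all 3 numbers, by 2.21 ± 0.24 on the log2(TPM + 1) scale (SD, n = 3; exact sign-flip permutation p = 0.25, two-sided, the smallest possible). As a percent of the Merkel mean, EGFP averaged 1.30% in first and 7.55% in second libraries. Hepacam2 averaged 0.392% and 0.0987%, Aspa 0.363% and 0.283%, and Atp8a2 0.597% and 0.0351%. None of the members was higher in all second libraries, as EGFP was.

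Of 14 Merkel cell marker genes, basal levels relative to the Merkel mean ranged from 0.153% to 2.97% in first libraries (median 0.272%) and from 0 to 9.5% in second libraries (median 0.206%). The members lay within these ranges. For 11 markers the first and second libraries overlapped. Pou4f3 and Cck lay higher in all first libraries, as Hepacam2 and Atp8a2 did, and Piezo2, the touch-sensing channel, lay lower in all of them. Other cell type markers also moved between these libraries. The summed level of 8 Langerhans cell and macrophage genes was 772 to 1467 TPM in first and 113 to 404 TPM in second libraries, and that of 8 melanocyte genes was 17.1 to 37.5 and 116 to 168 TPM. Their part in the members' traces was not tested.

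**Figure D2:**
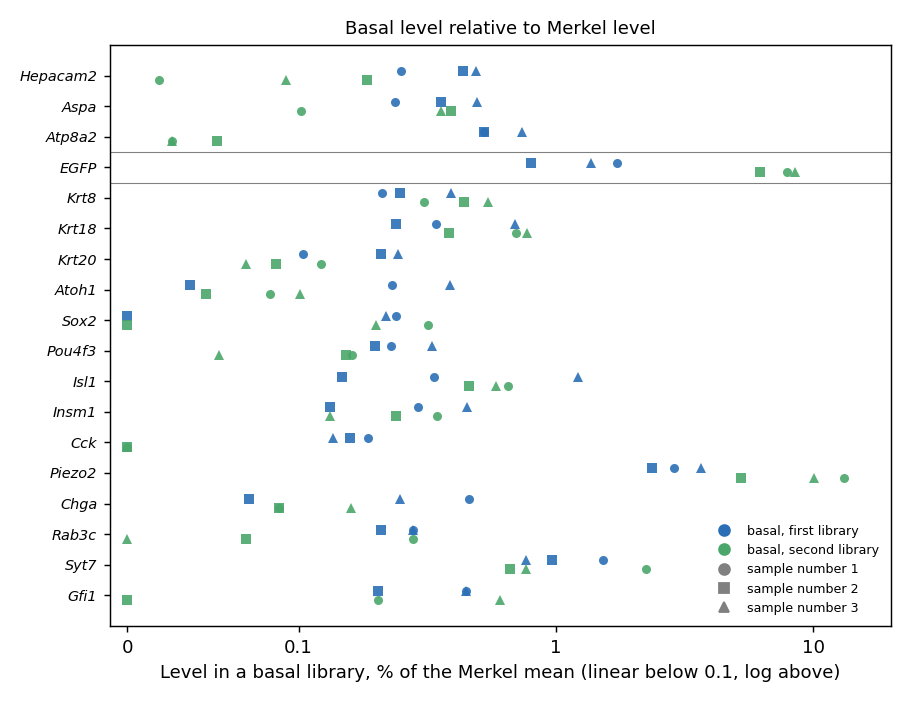
Level in each basal library as a percent of the Merkel mean, for the members (top), EGFP and 14 Merkel cell marker genes, on an axis that is linear below 0.1 and logarithmic above. Colour separates first from second basal libraries and marker shape gives the sample number. Atp8a2 lies at 0.527% to 0.738% in first and 0.0263% to 0.0527% in second libraries, while EGFP is higher in second libraries.

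The genes with the most similar pattern were found by the root mean square difference in log2(TPM + 1) over the 9 libraries, among 12153 tested protein-coding genes, leaving out predicted ones. This measure weighs the level itself as well as the shape. Nearest to Hepacam2 were Atoh1 at 0.19 and Pou4f3 at 0.21, transcription factors of Merkel and inner ear hair cells. Avil at 0.34, which encodes the actin-binding protein advillin, Cck at 0.45, a neuropeptide gene, and Aspa itself at 0.52 followed. Atoh1 had a Merkel mean of 108 TPM, the same as Hepacam2 when rounded.

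Nearest to Aspa were Krt20 at 0.14, a keratin used to mark Merkel cells, Chga at 0.22, which encodes the secretory granule protein chromogranin A, and Sox2 at 0.22. Avil at 0.26 and the homeobox gene Lhx3 at 0.27 were next. Nearest to Atp8a2 were Insm1 at 0.11, a zinc finger factor of neuroendocrine cells, Prrxl1 at 0.20, Lhx3 at 0.25, Tlx3 at 0.25 and Sox2 at 0.27. Insm1 had a Merkel mean of 37.6 TPM and Atp8a2 one of 38.0 TPM. Since the measure weighs the level, Hepacam2 and Atp8a2 were 0.87 apart although both were high in the same 3 libraries. No test was made of it.

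Atp8a2 works with a CDC50 subunit, and the gene for that subunit was higher in Merkel cells. Tmem30a, which encodes CDC50A, was at 57.5, 52.9 and 63.6 TPM in Merkel libraries and at 20.7 to 27.4 TPM over the 6 basal libraries, without overlap. The means were 58.0 ± 5.36 and 23.7 ± 0.991 TPM (SD, n = 3 each), a log2(TPM + 1) difference of 1.26 ± 0.12 (SE, limma adjusted p = 5.6e-05). The call held under all 15 alternative settings. Tmem30b, for the CDC50B subunit, was at 17.7 to 22.8 TPM in Merkel and 11.9 to 13.3 TPM in basal libraries, a difference of 0.67 that missed the fold limit of a call, which is 1 on the log2 scale with a limma adjusted p under 0.05.

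Atp8a2, which was chosen for its contrast, was the single P4-ATPase gene of the list with one of that size. Its closest named paralog Atp8a1 was at 10.3, 11.2 and 13.0 TPM in Merkel libraries and at 8.70 to 13.7 TPM in basal libraries, which overlapped (log2 difference 0.13 ± 0.15 SE, limma adjusted p = 0.525). Atp8b2, the most abundant flippase of basal cells, was at 19.99 ± 2.95 TPM in Merkel and 38.8 ± 1.46 TPM in basal cells (SD, n = 3 each). Its difference of -0.93 just missed the fold limit, and it passed at -1.01 without Merkel library 3. Atp10a, a flippase for phosphatidylcholine, was lower in Merkel cells at 0.95, 0.94 and 1.37 TPM against 3.85 to 6.44 TPM in basal libraries (log2 difference -1.52 ± 0.15 SE, limma adjusted p = 1.0e-04). In Merkel cells Atp8a2 stood above Atp8a1 and Atp8b2 in every library, while in basal cells it was far below both. It was not the most abundant flippase gene of Merkel cells, since Atp9a was at 44.6, 37.6 and 47.2 TPM there and at 28.2 ± 0.5003 TPM in basal cells (SD, n = 3).

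Leaving Atp8a2 out, 17 genes for P4-ATPases and CDC50 subunits were listed and 13 were tested. Tmem30a was called higher and Atp10a lower, and 11 were not called. The median log2 difference over those tested was 0.13, against -0.15 over all 13822 genes tested, of which 6.79% were called higher and 5.27% lower. The count of lower genes was 2 without Merkel library 3. In second against first basal libraries 1 of 14 tested genes was lower, against 3.67% of all genes tested. It was Atp8b4, at 4.24, 1.69 and 2.64 TPM in first and 0.14, 0.45 and 0.16 TPM in second libraries (limma adjusted p = 0.0126).

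**Figure D3:**
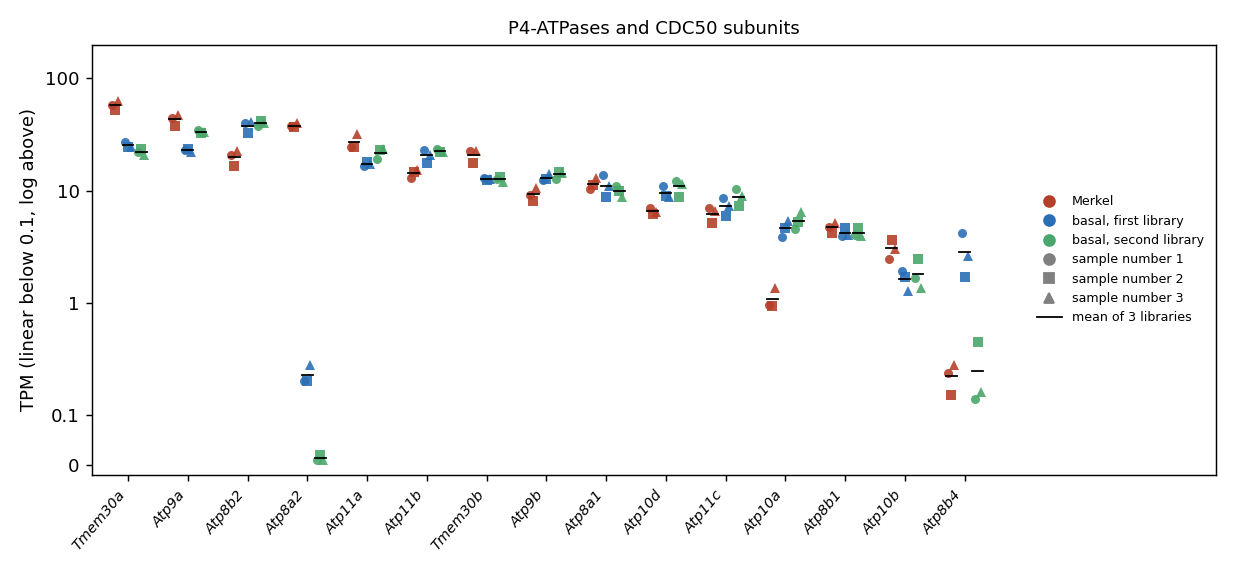
Levels of the P4-ATPase and CDC50 subunit genes that reached 1 TPM in at least 1 library, in TPM on an axis that is linear below 0.1 and logarithmic above. Colour gives the group, marker shape the sample number and bars the means of 3 libraries. Atp8a2 is at 36.6 to 39.7 TPM in Merkel libraries and at most 0.28 TPM in basal libraries, while Atp8a1 overlaps between groups.

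Scramblases move lipids between leaflets in both directions, without ATP. Over all genes tested 6.79% were called higher and 5.27% lower in Merkel cells. Of 20 scramblase genes listed, 13 were tested, 5 were called higher, none lower and 8 were not called, with a median of -0.05. At a limma adjusted p under 0.05 without the fold limit 2 were lower, and at an unadjusted p 3, counts with no matching share over all genes here. Those called higher were all of low level. Ano3, a gene of the anoctamin family that holds scramblases and channels, was at 4.56, 4.59 and 6.31 TPM in Merkel and at most 0.21 TPM in basal libraries (log2 difference 2.51 ± 0.15 SE, limma adjusted p = 3.4e-06). Ano4 of the same family was at 4.36, 4.41 and 5.58 TPM against at most 0.09 TPM (2.47 ± 0.13 SE, limma adjusted p = 2.2e-06). Xkr7, related to the apoptotic scramblase Xkr8, was at 1.90 ± 0.351 TPM against 0.00667 ± 0.00577 TPM (SD, n = 3 each).

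The other two genes called were Plscr1 and Plscr4, of the phospholipid scramblase family. Plscr1 was at 3.497 ± 0.750 TPM in Merkel and 1.19 ± 0.431 TPM in basal cells (SD, n = 3 each), a difference of 1.07 that fell to 0.82 against first basal libraries alone, 0.94 without Merkel library 3 and 0.93 without basal number 3. Plscr4 was at 1.95 ± 0.474 against 0.377 ± 0.0625 TPM (SD, n = 3 each), a difference of 1.10 that was 0.99 against second basal libraries alone and 0.97 without Merkel library 3. Without that library 3 scramblase genes were called. Ano3, Ano4, Xkr7 and Plscr4 passed the filter only through their Merkel values, which largely sets their calls. Tmem41b, the most abundant scramblase gene in the Merkel mean, stood at 27.4 TPM in Merkel and 28.5 TPM in basal cells. Plscr3, the most abundant in the basal mean, stood at 19.1 and 28.8 TPM, and neither was called. In Merkel means Ano3 was at 5.15 and Ano4 at 4.78 TPM, both well below Atp8a2.

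Aspa consumes N-acetylaspartate, and the gene for the enzyme that makes it was low in both groups. Nat8l, which encodes N-acetylaspartate synthase, was at 1.49, 1.10 and 1.42 TPM in Merkel libraries and at 2.42 to 2.93 TPM in basal libraries. All Merkel values lay below all basal values, as for 26.2% of genes tested, but the log2 difference of -0.65 ± 0.13 (SE, limma adjusted p = 0.00363) missed the fold limit. Aspa was thus 58.8 TPM where Nat8l was 1.34 TPM, in Merkel means. Acy3, the closest named paralog of Aspa and a deacylase of other acetylated amino acids, was at 1.67 to 2.88 TPM in Merkel and 1.75 to 2.61 TPM in basal libraries, which overlapped (log2 difference -0.02 ± 0.16 SE, limma adjusted p = 0.946).

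The products of Aspa are acetate and aspartate. Acss2, the cytosolic and nuclear enzyme that turns acetate into acetyl-CoA, was at 6.35, 6.04 and 7.04 TPM in Merkel libraries and at 1.29 to 2.40 TPM in basal libraries, without overlap. Its log2 difference was 1.48 ± 0.15 (SE, limma adjusted p = 1.1e-04), and the call held under all 15 alternative settings. Slc1a3, a glutamate and aspartate transporter, was lower in Merkel cells, at 4.95, 3.40 and 5.4 TPM against 15.95 to 21.3 TPM (log2 difference -1.91 ± 0.16 SE, limma adjusted p = 3.2e-05). Ass1, which joins aspartate to citrulline, was lower too, at 34.9 ± 8.44 against 83.0 ± 14.7 TPM (SD, n = 3 each; log2 difference -1.24 ± 0.20 SE, limma adjusted p = 0.00138).

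Slc13a3, a transporter that takes up N-acetylaspartate and dicarboxylates, was called lower, but not evenly. It was at 0.29, 0.18 and 0.42 TPM in Merkel, 5.25, 2.64 and 4.35 TPM in first basal and 0.28, 0.63 and 0.20 TPM in second basal libraries. Merkel and second basal libraries overlapped, and Slc13a3 was itself called lower when second were set against first basal libraries (log2 difference -1.87, limma adjusted p = 0.00542). Its Merkel difference of -1.0045 lost the call at -0.95 with median-ratio scaling, -0.94 without basal number 1 and -0.94 without Merkel library 2. The Langerhans cell and macrophage genes, whose sums are given above, were high in the same first basal libraries, and their part was not tested.

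Of 24 other genes of N-acetylaspartate and aspartate metabolism, 17 were tested. Among these 1 was called higher and 3 lower, against 6.79% and 5.27% of all genes tested. The other 13 were not called, and the median was -0.02. The most abundant in Merkel cells, the mitochondrial aspartate aminotransferase gene Got2, was at 70.9 ± 8.95 TPM in Merkel and 65.9 ± 1.96 TPM in basal cells (SD, n = 3 each) and was not called. The N-acetylaspartylglutamate hydrolase gene Folh1 was at 0 in all 9 libraries. Aspa was the single gene of the list that went from under 1 TPM in all basal libraries to over 50 TPM in all Merkel libraries. That Aspa itself did so follows from its choice on this contrast.

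**Figure D4:**
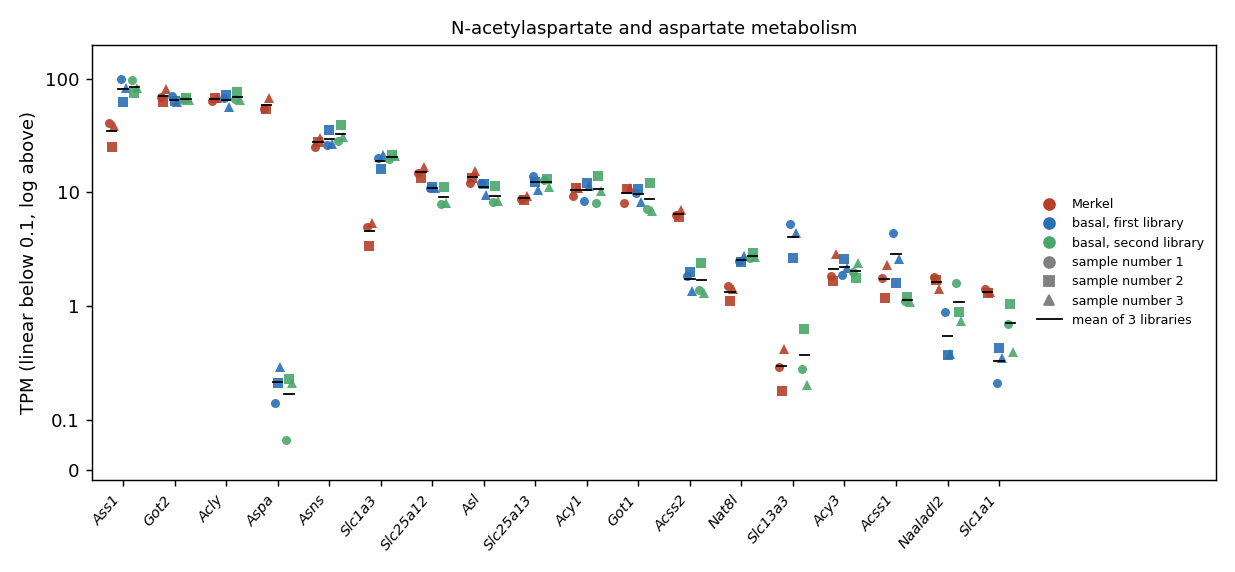
Levels of the genes of N-acetylaspartate and aspartate metabolism that reached 1 TPM in at least 1 library, in TPM on an axis that is linear below 0.1 and logarithmic above. Colour gives the group, marker shape the sample number and bars the means of 3 libraries. Aspa is at 53.9 to 68.4 TPM in Merkel libraries, Nat8l at 1.10 to 1.49 TPM, and Slc13a3 differs between first and second basal libraries.

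Hepacam, the paralog for which the family is named, was at most 0.07 TPM in any library, so Hepacam2 was the member of this pair that Merkel cells carried. Leaving Hepacam2 out, 24 related immunoglobulin-domain adhesion genes were in the table and 10 were tested. Of those 2 were called higher and 2 lower, against 6.79% and 5.27% of all genes tested. The other 6 were not called, and the median was -0.07. Clmp, an adhesion gene of the coxsackievirus receptor family, was at 2.38, 1.93 and 2.12 TPM in Merkel and at most 0.26 TPM in basal libraries (log2 difference 1.42 ± 0.13 SE, limma adjusted p = 4.5e-05), and passed the filter only through its Merkel values. Vsig8 was at 4.85, 4.82 and 5.66 TPM against 0.95 to 1.87 TPM (1.28 ± 0.13 SE, limma adjusted p = 1.1e-04). Cxadr, the most abundant of the group, was at 48.2 ± 5.07 and 54.9 ± 7.86 TPM (SD, n = 3 each) and was not called.

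The genes called lower in that group are genes of blood cells of the signalling lymphocyte activation family. Cd84 was at 1.22, 1.85 and 1.63 TPM in Merkel, 17.0, 8.92 and 13.4 TPM in first basal and 1.40, 3.06 and 0.98 TPM in second basal libraries. Its difference of -1.25 was -0.07 against second basal libraries alone (limma adjusted p = 0.844). Slamf9 was at 0.46, 0.38 and 0.57 TPM in Merkel, 4.92, 5.0 and 4.33 TPM in first and 0.85, 0.40 and 0.65 TPM in second basal libraries. Its difference of -1.06 was -0.98 with median-ratio scaling and -0.9979 without basal number 1, and neither passed the limit. Against second basal libraries alone 0 genes of the group were called lower, and against first libraries alone 4 were. Both genes were called lower in second than in first basal libraries, among 4 of 9 tested in the group, against 3.67% of all genes tested. Calls in that contrast rest on few libraries, since without sample number 1 or number 3 the counts over all genes were 1 to 2 in each direction.

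All 14 genes for proteins of the centrosome, spindle and Golgi and for tankyrases, listed for the reported location of the Hepacam2 protein, were tested. None was called higher or lower by limma, against 6.79% and 5.27% of all genes tested. At a limma adjusted p under 0.05 without the fold limit 6 were lower and 0 higher, and at an unadjusted p 7 and 0. Those shares over all genes include the fold limit, so they cannot be set beside these counts. Their median was -0.36, against -0.15 over all genes tested. The most abundant were Tnks2, a tankyrase gene, at 66.2 ± 15.7 TPM in Merkel and 70.2 ± 5.44 TPM in basal cells, and Numa1, a spindle pole gene, at 60.0 ± 9.55 and 89.6 ± 5.59 TPM (SD, n = 3 each). Numa1 was lower in all Merkel than in all basal libraries, as were 26.2% of genes tested, by -0.57 ± 0.14 (SE, limma adjusted p = 0.0107), under the fold limit. Hepacam2 at 108 TPM stood above all 14 in the Merkel mean.

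Genes beside the members on the chromosome were also looked at. Over all genes tested 6.79% were called higher and 5.27% lower in Merkel cells. Of 17 protein-coding genes next to or overlapping the members, 10 were tested and 7 were not. Among those tested 1 was called higher, none lower and 9 were not called, which is near those shares and shows nothing particular to these loci. At a limma adjusted p under 0.05 without the fold limit 2 were lower, and at an unadjusted p also 2, counts with no matching share over all genes here. Vps50 begins 83 bases beyond the outermost end of Hepacam2 on the opposite strand and was at 9.86 ± 0.774 TPM in Merkel and 12.1 ± 2.03 TPM in basal cells (SD, n = 3 each). Samd9l, on the other side of Hepacam2, was at 1.34 and 3.16 TPM. It was called lower in second than in first basal libraries (log2 difference -1.57, limma adjusted p = 0.00497). Trpv3, a warmth-sensing channel gene 4628 bases from Aspa, was at 1.12 ± 0.238 TPM in Merkel and 2.56 ± 0.539 TPM in basal cells (SD, n = 3 each). Its difference of -0.74 ± 0.16 (SE, limma adjusted p = 0.00501) was under the fold limit.

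Shisa2, 6879 bases from the far end of Atp8a2, was the neighbour called higher. It was at 6.42, 5.93 and 6.11 TPM in Merkel, 0.87, 2.13 and 0.91 TPM in first basal and 2.70, 3.24 and 2.53 TPM in second basal libraries. Its log2 difference was 1.29 ± 0.16 (SE, limma adjusted p = 3.0e-04) and was 0.91 against second basal libraries alone, under the fold limit. Nupl1 shares 12568 bases of its span with Atp8a2 on the same strand and was at 26.1 ± 2.68 and 25.1 ± 1.94 TPM (SD, n = 3 each). Reads in the shared span could be divided between these genes. In the basal libraries Nupl1 was at 23.2 to 28.0 TPM while Atp8a2 was at most 0.28 TPM.

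The labelled cell types were checked by marker lists. All 14 Merkel cell genes were called higher in Merkel libraries, led by Krt8, and 7 of 11 basal keratinocyte genes lower. Over all 13822 genes tested 6.79% were called higher and 5.27% lower, the shares to set beside every marker list. Apart from Krt8, the Merkel cell genes passed the filter only through their Merkel values, which largely sets their calls. Krt5 was still at 2263 ± 124 TPM in Merkel and 6130 ± 226 TPM in basal libraries (SD, n = 3 each). Of 10 suprabasal keratinocyte genes 1 was called higher and 9 were not called. They were abundant in both groups, with sums of 7282 to 11843 TPM in Merkel, 7070 to 11103 TPM in first and 7852 to 11449.5 TPM in second basal libraries. Krt1, the most abundant of them, was at 3360 ± 1226 TPM in Merkel and 3341 ± 1052 TPM in basal cells (SD, n = 3 each). Between 13012 and 13649 genes reached 1 TPM per library. Read depth cannot be had from TPM and is unknown here.

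The members are also known from other cell types, whose markers were looked at in the same libraries. Of 13 oligodendrocyte genes, where Aspa is best known, 5 were tested and 1 was called higher, Mal, at 11.4 ± 8.77 TPM against 0.447 ± 0.125 TPM (SD, n = 3 each). Mal passed the filter only through its Merkel values, which largely sets its call. The defining genes Mog, Opalin and Olig2 had means of at most 0.0167 TPM in Merkel libraries, and 8 of the 13 stayed under 1 TPM in every library. Among those 8, Mobp was at 0.54, 0.48 and 0.86 TPM in Merkel libraries and at 0 in all 6 basal libraries, and Ugt8a and Ermn had Merkel means of 0.413 and 0.1 TPM against 0.0133 and 0 TPM in basal cells. The summed level of the list was 23.1 to 41.0 TPM in Merkel, 15.3 to 17.5 TPM in first basal and 16.1 to 19.4 TPM in second basal libraries. Of 12 Schwann cell genes 6 were tested and none was called by limma (2 higher and 1 lower at an adjusted p under 0.05 without the fold limit, and the same numbers at an unadjusted p), with sums of 49.6 to 68.5, 44.5 to 52.6 and 54.3 to 65.4 TPM. Erbb3 held most of that sum. The counts without the fold limit have no matching share over all genes here.

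Of 16 sensory neuron genes, for Atp8a2, 6 were tested and 5 called higher (Tubb3, Avil, Stmn2, Snap25 and Tlx3). The sums were 148 to 207 TPM in Merkel and at most 4.70 TPM in basal libraries. Except for Tubb3, the genes called passed the filter only through their Merkel values, which largely sets their calls. The axonal neurofilament genes Nefl and Nefm and the sodium channel gene Scn10a had means of at most 0.0767 TPM in Merkel libraries. Of 14 tuft cell genes, for Hepacam2, 8 were tested, 2 called higher (Avil and Dclk1) and 4 lower, the most abundant of these in basal cells being Pou2f3, while Chat, Gfi1b, Il25 and Sh2d6 had means of at most 0.0133 TPM in Merkel libraries. Of 10 goblet and secretory genes 5 were tested and 2 called higher, Atoh1 and Agr2, and Zg16 was at 0 in all libraries. Avil, Dclk1, Atoh1 and Agr2 passed the filter only through their Merkel values, which largely sets their calls. Avil is on both the neuron and tuft lists, and Atoh1 on both the Merkel and goblet lists.

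Markers of other skin cells differed between groups, not all in the same direction. Of 12 dermal fibroblast and papilla genes 10 were tested and 7 called higher, most of which passed the filter only through their Merkel values. Those called were Col1a1, Col1a2, Col3a1, Pdgfra, Corin, Crabp1 and Alx4, while Col6a1, Dcn and Vim were not called. Col3a1 was at 29.9 TPM in Merkel and 0.965 TPM in basal means, and Alx4 at 11.3 and 0.045 TPM. The 12 genes had sums of 309 to 482 TPM in Merkel, 395 to 912 TPM in first and 275 to 371 TPM in second basal libraries. Vim and Dcn held most of each sum, so the sums do not follow the genes called. Vim was the most abundant of them in the mean of the first and second basal libraries, at 340 ± 102 TPM (SD, n = 3), while Dcn was above Vim in 2 of the 6 basal libraries. Of 8 melanocyte genes 6 were called higher, with sums of 162 to 230 TPM in Merkel libraries. All 8 were called higher in second than in first basal libraries, against 0.675% of all genes tested. Of 8 Langerhans cell and macrophage genes 1 was called higher, Epcam, and 4 lower, with sums of 174 to 289 TPM in Merkel libraries. Epcam held a large part of those sums, at 120, 91.6 and 121 TPM in Merkel libraries 1, 2 and 3. It was at 43.75 to 60.97 TPM over the 6 basal libraries. Of 6 endothelial genes 1 was tested, Pecam1, at 1.76 ± 0.433 against 0.408 ± 0.0785 TPM (SD, n = 3 each), and its difference of 0.97 (limma adjusted p = 9.2e-04) was under the fold limit. In the second basal libraries melanocyte genes summed to 116 to 168 TPM. Atp8a2 was at 0.01 to 0.02 TPM there, Hepacam2 at 0.02 to 0.20 TPM and Aspa at 0.06 to 0.23 TPM. The part of any of these cells in the members' levels was not tested.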

How the data were processed

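Per the labels' protocols, total RNA of the 9 sorted samples went through a strand-marking kit and was sequenced in paired reads, each 125 bases long. Trimmomatic, STAR and RSEM and build mm10 are named in the submitters' processing notes, without versions. The annotation and the strand setting were not given in the sources used here, which leaves reads of overlapping genes uncertain. The deposited values are TPM per gene, made by the authors, in 1 table of 49672 genes. TPM keeps no depth, so no counting interval is given. Without version suffix 49326 identifiers matched a symbol of GENCODE M21, on the same build, and 43749 matched with the version.

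Values were transformed to log2(TPM + 1), and the basal value of a number is the mean log2 of its first and second library. A gene was tested at 1 TPM or more in at least 3 of 6 values. Two-sided tests came from limma 3.58.1 (R 4.3.3), with its trend option and p-values adjusted by Benjamini-Hochberg, and a call needed an adjusted p under 0.05 and a log2 difference of 1 or more in size. The fit was tested on simulated data. Tables and plots used Python 3.11.15, pandas 2.3.3, scipy 1.17.1 and matplotlib 3.10.9. Samples of the same number deviated together (r = 0.385, 0.357 and 0.202 between Merkel and basal values, 0.474, 0.532 and 0.376 between first and second basal libraries), so the numbers pair the samples, as seen in the data and not stated in the labels.

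The members and lists were chosen with earlier results of these data known. Named genes are the members, up to 5 called genes and the most abundant gene of each related list, the named paralogs, Nat8l and Tmem30a, neighbours, and the 5 nearest patterns. Marker lists give their most abundant gene and defining genes near 0. Some list genes are not reported here by name. EGFP, Tmem30b, Atp8b4, Atp9a, Folh1, Mobp, Ugt8a, Ermn, the fibroblast genes other than Vim and genes named beside a count of 5 or fewer were chosen after their values were seen. Alternatives changed the pseudocount (0.1 and 0.5), the filter (none and 5 TPM), the scaling, the basal libraries used, the replicate block and each replicate in turn.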

Additional observations from a re-analysis of the deposited data

Results flagged for a closer look

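Of 38 genes looked at over the 6 basal libraries, 3 had a library far from the other 5, where chance gives about 1 group in 20. Ano3 had 0.21 TPM in the second basal library of number 2 and at most 0.06 TPM in the others. Shpk, beside Aspa, had its lowest value of 0.85 TPM in that same library. Slc1a3 had its lowest basal value, 15.95 TPM, in the first basal library of number 2. None of the 3 members had such a library.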

How the results depend on the processing

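The log2 difference of Hepacam2 was 8.41 with a pseudocount of 0.1, 7.18 with 0.5 and 7.16 with small RNA and mitochondrial genes removed. For Aspa these were 7.71, 6.43 and 6.40, and for Atp8a2 7.63, 5.98 and 5.94. Atp8a2 was at 4.99 against first and 5.26 against second basal libraries alone, and at 5.26 with median-ratio scaling. Leaving out each replicate gave 6.30 to 6.56 for Hepacam2, 5.53 to 5.70 for Aspa and 5.09 to 5.15 for Atp8a2.

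Over all genes, a 5 TPM filter, which tests fewer genes, gave 486 higher and 449 lower in Merkel cells. Median-ratio scaling gave 442 lower and moved the median of all genes from -0.15 to 0.02, so 71.2% of calls were higher against 56.3%. A pseudocount of 0.1 gave 1254 lower. In second against first basal libraries the 5 TPM filter gave 58 higher and 253 lower, a pseudocount of 0.1 gave 147 higher and removing small RNA gave 141 higher. Without 1 sample number, 1 to 131 were higher and 1 to 673 lower, the lowest counts being those without number 1 or number 3.

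With the 5 TPM filter, 0 flippase genes were lower, 0 scramblase genes higher, and 0 adhesion genes higher and 0 lower. Flippase genes called lower were 2 against first basal libraries alone and 2 with small RNA removed, and 1 to 2 without 1 replicate. Scramblase genes called higher were 3 to 5 without 1 replicate, and 1 was lower with a pseudocount of 0.1 and 1 against second basal libraries alone. With a pseudocount of 0.1, 3 genes of aspartate metabolism were higher, 1 centrosome gene lower and 1 neighbour lower. Adhesion genes called lower were 4 against first and 0 against second basal libraries alone, and 1 with median-ratio scaling. Against second basal libraries alone 1 centrosome gene was lower and 0 neighbours higher, and against first alone 1 neighbour was lower. The causes of these shifts were not tested. No named gene with a call changed direction.

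With the replicate block, pairing by sample number, 960 genes were higher and 759 lower, and 106 and 534 in second against first basal libraries. The block changed no call of a named gene and no count of the related lists or neighbours. TPM gives no depth, which limits the reading of values under 1 TPM, those of the members in basal libraries among them.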
